A study of Capra hircus with 6 samples.

Results

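Inflammatory cytokines, chemokines and targets of the transcription factor NF-kB were followed in the goat (Capra hircus) cell line mGSCs-I-SB, which the labels describe as spermatogonial stem cells, across knockdown of UCHL1 and of HSPA8. The genes were a list of 40 symbols, chosen with earlier results of these data known and looked up in the deposited gene table. Of these, 38 had a row with values, out of 16599 genes with values in the table, and CCL2 and VCAM1 were not analysed here. The 6 libraries came from shUCHL1 cells (hairpin RNA against UCHL1, a ubiquitin C-terminal hydrolase), shHSPA8 cells (hairpin RNA against HSPA8, the constitutive HSP70 chaperone) and shCON cells (control hairpin, genotype labelled WT), with 2 libraries per line. All 3 lines grew in DMEM/F12 with fetal bovine serum. The labels do not give the number of hairpins per gene, whether a line was 1 clone, or whether the libraries of a line were separate cultures, so every p-value here speaks of library-to-library spread alone, and that spread may be technical.

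NF-kB is a family of dimeric transcription factors (RELA, RELB, REL and the processed products of NFKB1 and NFKB2) held in the cytoplasm by IkB proteins. Interleukin-1, TNF or microbial ligands activate the IKK kinases, which mark IkB for degradation by the ubiquitin-proteasome system and so release the dimers. Among the genes they switch on are secreted cytokines and chemokines, adhesion molecules, survival factors and their own inhibitors, NFKBIA and TNFAIP3, which close the loop. In the testis, cytokines such as IL1A, IL6 and LIF also act as local signals between somatic cells and germ cells.

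Total counts ran from 15710529 to 16417262 per library. UCHL1 stood at 94.3 and 97.7 CPM (counts scaled to library size, with TMM factors) in shUCHL1, 386 and 334 CPM in shHSPA8, and 405 and 451 CPM in shCON. HSPA8 stood at 5252 and 5344.5 CPM in shUCHL1, 2631 and 2527.5 CPM in shHSPA8, and 4016 and 4112 CPM in shCON, so each targeted transcript was lowest in its own knockdown line. The depth of the knockdowns differed: against shCON, UCHL1 was 4.46-fold lower in shUCHL1 and HSPA8 1.58-fold lower in shHSPA8. HSPA8 was also called 1.30-fold higher in shUCHL1 than in shCON (edgeR adjusted p = 0.0129), but not with a replicate block (0.0549). That call also ended without shUCHL1 replicate 1 or 2, with log2 fold changes of 0.38 and 0.35. Of 20 markers of germ cells and their stem cells, 9 had values and 7 were tested. KIT and POU5F1 had 3 or fewer counts over all libraries, and DDX4 averaged 1.88 CPM in shUCHL1, 1.12 CPM in shHSPA8 and 0.721 CPM in shCON. ETV5 averaged 12.5 CPM in shUCHL1, 11.3 CPM in shHSPA8 and 12.7 CPM in shCON. ID4 averaged 6.08 CPM in shUCHL1, 9.52 CPM in shHSPA8 and 2.63 CPM in shCON, and was called higher in both knockdown lines. RET averaged 1.33 CPM in shUCHL1, 0.577 CPM in shHSPA8 and 0.249 CPM in shCON, and was called higher in shUCHL1. UCHL1 is itself a marker on this list. GFRA1 and TEX14 averaged under 1.4 CPM in every line. The germ cell list was thus detected in part, and the cells are called by the name of the line.

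All 14 fibroblast and peritubular myoid markers were tested. In shUCHL1 3 were called higher and 6 lower (21.4% and 42.9%, against 8.54% and 7.15% of all tested genes). In shHSPA8 5 were called higher and 1 lower (35.7% and 7.14%, against 8.66% and 6.02%). The summed level of the 14 markers was 32762 and 33506 CPM in shUCHL1, 39732 and 39159 CPM in shHSPA8, and 29064 and 31303 CPM in shCON, most of it from COL1A1, COL1A2 and COL3A1. The contractile genes ACTA2, TAGLN, CNN1 and DES ran against that sum in shUCHL1. MYH11, also contractile, did not: it averaged 2.48 CPM in shUCHL1, 2.44 CPM in shHSPA8 and 1.90 CPM in shCON and was not called. ACTA2 averaged 550 CPM in shUCHL1, 1237 CPM in shHSPA8 and 1641 CPM in shCON. TAGLN averaged 676 CPM in shUCHL1, 1590 CPM in shHSPA8 and 1754 CPM in shCON. CNN1 averaged 0.850 CPM in shUCHL1, 18.6 CPM in shHSPA8 and 12.5 CPM in shCON, and DES, THY1 and VIM were the other three called lower in shUCHL1.

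Leukocytes are a common source of these cytokines. Of 19 leukocyte markers, 14 had values and 5 were tested. PTPRC, the pan-leukocyte surface phosphatase CD45, averaged 0.0305 CPM in shUCHL1, 0.159 CPM in shHSPA8 and 0.0306 CPM in shCON, and ITGAM, CD79A and SPI1 had 3 or fewer counts over all libraries. The summed level of the list was 176 and 191 CPM in shUCHL1, 306 and 301 CPM in shHSPA8, and 501 and 507 CPM in shCON. LCP1, an actin-bundling protein, averaged 129 CPM in shUCHL1, 236 CPM in shHSPA8 and 460 CPM in shCON, and so made up most of that sum. CD14, a lipopolysaccharide co-receptor that also activates NF-kB, averaged 47.5 CPM in shUCHL1, 58.5 CPM in shHSPA8 and 36.0 CPM in shCON. Summed endothelial markers stood at 39.7 and 41.1 CPM in shUCHL1, 58.4 and 57.8 CPM in shHSPA8, and 87.0 and 83.1 CPM in shCON. EMCN carried that difference, at 8.86 CPM in shUCHL1, 7.25 CPM in shHSPA8 and 50.9 CPM in shCON on average, while VWF was called higher in shUCHL1 and KDR and ERG in shHSPA8. RET, VWF and KDR were below the low-count filter level in both shCON libraries. The part of these marker differences in the results below was not tested. In bulk libraries, fewer cells of a type and less RNA per cell cannot be told apart.

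Of the 38 genes with values, 35 passed the low-count filter (about 0.622 CPM in 2 libraries) and were tested among 12665 genes with edgeR's quasi-likelihood test and Benjamini-Hochberg adjustment. Genes with an adjusted p under 0.05 are called higher or lower. With 2 libraries per line, a lack of overlap between lines was common among all 12665 genes. In shUCHL1 against shCON, 3731 lay apart higher and 3424 apart lower. These numbers were 3302 and 3153 in shHSPA8 against shCON, and 4296 and 4028 in shUCHL1 against shHSPA8. Where lines are said below not to overlap, that is a description only. TNFSF15, IL34 and LCN2 did not pass: over both libraries they had 10, 13 and 2 counts in shUCHL1, 14, 12 and 0 counts in shHSPA8, and 6, 4 and 3 counts in shCON. IL1B, CSF2, CSF3, CCL5 and IL7 were below the filter level in both shCON libraries and entered the test only through knockdown libraries, so an upward difference from shCON was built into their selection. Of these, CCL5 entered only through shHSPA8 and IL7 only through shUCHL1, which also builds in the direction of their difference between the knockdown lines. The other 30 tested genes were at or above that level in both shCON libraries, and counts are also given for these alone. Because the list was chosen with earlier results of these data known, its shares and medians beside those of all tested genes are a description.

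In shUCHL1 cells 18 of 35 tested genes were higher than in shCON and 2 were lower, set against 8.54% higher and 7.15% lower among all tested genes. The chemokines CXCL8 and CCL20, the interleukin-1 genes IL1A, IL1B and IL1RN, the adhesion molecule ICAM1 and the feedback genes TNFAIP3 and NFKBIA were among the higher ones, while IL6 differed from shCON by less than its error. The median log2 fold change was 0.60, against 0.01 over all tested genes. Over the 30 genes at or above the filter level in both shCON libraries, 16 were higher and 2 lower, with a median of 0.55.

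In shHSPA8 cells 21 of the 35 were higher than in shCON and 2 were lower, set against 8.66% and 6.02% of all tested genes. Here the IL6-type cytokines IL6, LIF and IL11 and the granulocyte factor CSF3 were among the higher genes together with CXCL8, CCL20 and SOD2. The median log2 fold change was 0.66, against -0.00 over all tested genes. Over the 30 genes at or above the filter level in both shCON libraries, 18 were higher and 2 lower, with a median of 0.58. Both comparisons share the shCON libraries, so their values are set side by side below and not counted as separate evidence.

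Set directly against shHSPA8, shUCHL1 had 5 of 35 genes higher and 12 lower, against 6.2% higher and 8.35% lower of all tested genes. Of 18 secreted cytokines and chemokines, 9 were lower in shUCHL1 than in shHSPA8 and the other 9 were not called (2 were higher at an unadjusted p under 0.05, and DESeq2 called 0 higher), while ACKR3, ICAM1, TNFAIP2, BIRC3 and TRAF1, none of which encodes a secreted factor, were the 5 higher genes. NFKB1, TNFAIP3 and SOD2 were the other 3 lower ones. The median over the 35 was -0.14, against 0.02 over all tested genes. Over the 30 genes at or above the filter level in both shCON libraries, 5 were higher and 9 lower, with a median of -0.07, so IL1B, CSF3 and CCL5 are the calls left out. With scaling by library size alone, which moves the median of all genes in this contrast to 0.12, 5 genes were higher and 11 lower.

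**Figure D1:**
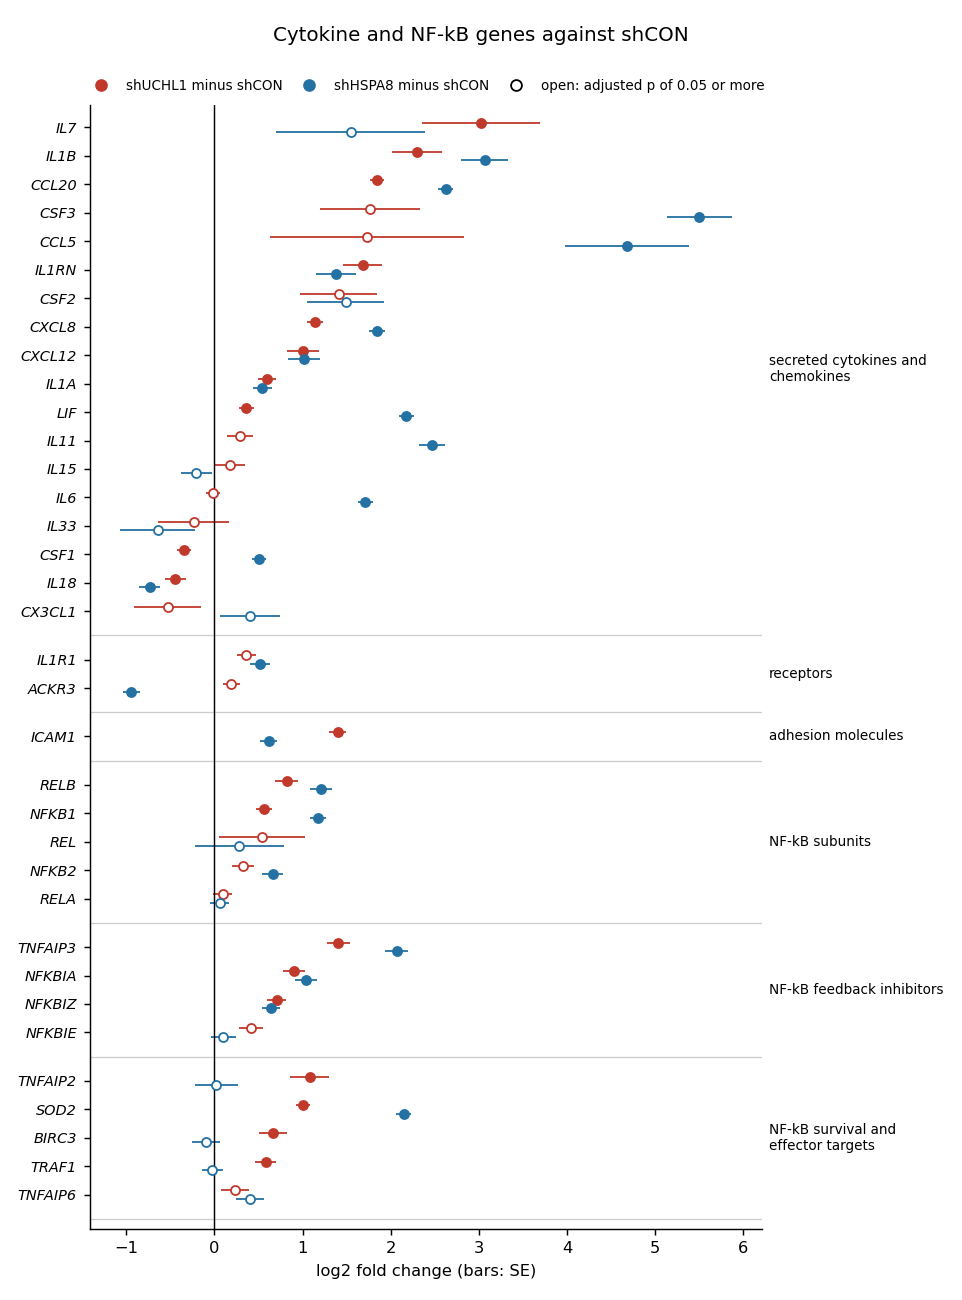
Log2 fold change of the 35 tested genes in shUCHL1 minus shCON (red) and shHSPA8 minus shCON (blue), grouped by role, with bars for the standard error, 2 libraries per line, and open points for genes not called. Most points lie to the right of 0, and IL6, LIF, IL11 and CSF3 are the cytokines whose blue points lie farthest from their red ones, with CCL5.

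Among the secreted proteins, IL6, LIF and IL11 belong to the family that signals through the shared receptor subunit IL6ST. IL6 stood at 71.0 and 69.8 CPM in shUCHL1, 236 and 232 CPM in shHSPA8, and 71.0 and 71.7 CPM in shCON. LIF, a self-renewal factor for several stem cell types, stood at 101 and 98.4 CPM in shUCHL1, 351 and 350 CPM in shHSPA8, and 74.6 and 80.7 CPM in shCON. For both genes the shHSPA8 libraries lay well above the other 4. IL6 rose 3.28-fold in shHSPA8 (log2 fold change 1.71, SE 0.08, edgeR adjusted p = 5.42e-05), and in shUCHL1 its log2 fold change was -0.02 (SE 0.08, edgeR adjusted p = 0.910). LIF rose 4.52-fold in shHSPA8 (log2 fold change 2.17, SE 0.09, edgeR adjusted p = 2.79e-05) and 1.28-fold in shUCHL1 (0.36, SE 0.08, edgeR adjusted p = 0.0301).

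IL11 stood at 43.6 and 45.7 CPM in shUCHL1, 216 and 188 CPM in shHSPA8, and 31.7 and 41.5 CPM in shCON. Its shHSPA8 libraries were again the high ones, while the shCON libraries spread enough to come close to shUCHL1. IL11 rose 5.52-fold in shHSPA8 (log2 fold change 2.46, SE 0.15, edgeR adjusted p = 0.00013), and in shUCHL1 the log2 fold change was 0.29 (SE 0.15, edgeR adjusted p = 0.245). In the direct contrast all 3 IL6-type cytokines were lower in shUCHL1 than in shHSPA8, IL6 by 3.32-fold, LIF by 3.52-fold and IL11 by 4.52-fold, with edgeR adjusted p of 0.000113, 0.000108 and 0.000416. These differences between the knockdown lines were called under all 12 alternatives tried.

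The colony-stimulating factors, which drive growth of granulocytes and macrophages, did not move as a block. CSF3 (granulocyte colony-stimulating factor) had 0.794 and 0.719 CPM in shUCHL1, 10.7 and 9.63 CPM in shHSPA8, and 0.0633 and 0.367 CPM in shCON. It was thus near the floor of detection outside shHSPA8, with 319 counts there against 7 in shCON, a ratio of 46.8 with a 95% counting interval of 22.5 to 117.3. The edgeR log2 fold change in shHSPA8 was 5.50 (SE 0.37, adjusted p = 0.000173), and in shUCHL1, with 25 counts, it was 1.76 (SE 0.57, adjusted p = 0.0823). Both shCON libraries lay below the filter level, so an upward direction from shCON was built in. In the direct contrast CSF3 was 13.3-fold lower in shUCHL1 (edgeR adjusted p = 0.000718). Without shCON replicate 2 the shUCHL1 difference from shCON was 3.42 and passed edgeR's test (adjusted p = 0.0260).

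CSF1, the macrophage growth factor, stood at 110 and 108 CPM in shUCHL1, 199 and 195 CPM in shHSPA8, and 136 and 141 CPM in shCON. The 3 lines did not overlap, with shUCHL1 lowest and shHSPA8 highest. CSF1 fell 1.27-fold in shUCHL1 (log2 fold change -0.34, SE 0.08, edgeR adjusted p = 0.0305) and rose 1.42-fold in shHSPA8 (0.51, SE 0.08, edgeR adjusted p = 0.00672). Set directly against shHSPA8, it was 1.80-fold lower in shUCHL1 (edgeR adjusted p = 0.00146). CSF2 (granulocyte-macrophage colony-stimulating factor) had 25 counts in shUCHL1, 25 in shHSPA8 and 9 in shCON over both libraries, and passed in neither comparison with shCON (edgeR adjusted p = 0.0713 in shUCHL1 and 0.0631 in shHSPA8).

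Of 5 chemokines tested, CXCL8, CCL20 and CXCL12 rose in both knockdown lines, and CCL5 in shHSPA8. CXCL8, which attracts neutrophils, stood at 429 and 431 CPM in shUCHL1, 662 and 734 CPM in shHSPA8, and 203 and 187 CPM in shCON. CCL20, the ligand of CCR6 on lymphocytes and dendritic cells, stood at 190 and 192 CPM in shUCHL1, 334 and 322 CPM in shHSPA8, and 51.9 and 54.7 CPM in shCON. Neither gene overlapped between any of the lines. CXCL8 was 2.21-fold higher in shUCHL1 (1.14 on the log2 scale, SE 0.09) and 3.59-fold in shHSPA8 (1.84, SE 0.09), with edgeR adjusted p of 0.000447 and 5.52e-05. CCL20 was 3.59-fold higher in shUCHL1 (1.84 on the log2 scale, SE 0.08) and 6.16-fold in shHSPA8 (2.62, SE 0.09), with edgeR adjusted p of 9.29e-05 and 1.51e-05.

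The direct contrast placed both chemokines lower in shUCHL1 than in shHSPA8, CXCL8 by 1.62-fold (edgeR adjusted p = 0.00385) and CCL20 by 1.72-fold (edgeR adjusted p = 0.00198). CXCL12, which guides stem and immune cells through CXCR4, stood at 10.6 and 10.7 CPM in shUCHL1, 10.6 and 10.7 CPM in shHSPA8, and 4.37 and 6.18 CPM in shCON. It rose 2.01-fold in shUCHL1 and 2.02-fold in shHSPA8 (edgeR adjusted p = 0.0109 and 0.0106), and between the knockdown lines the log2 difference was -0.01 (SE 0.17). CCL5, a T cell and monocyte attractant, had 4 counts in shUCHL1, 31 in shHSPA8 and 1 in shCON over both libraries. The ratio of shHSPA8 to shCON was 31.8 with a 95% counting interval of 5.31 to 1298, and it passed edgeR's test (adjusted p = 0.00525). CCL5 entered that test only through shHSPA8, so this direction was built in and the values are a description. The membrane-bound chemokine CX3CL1 stayed between 0.480 and 1.20 CPM over the 6 libraries and passed in no comparison.

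**Figure D2:**
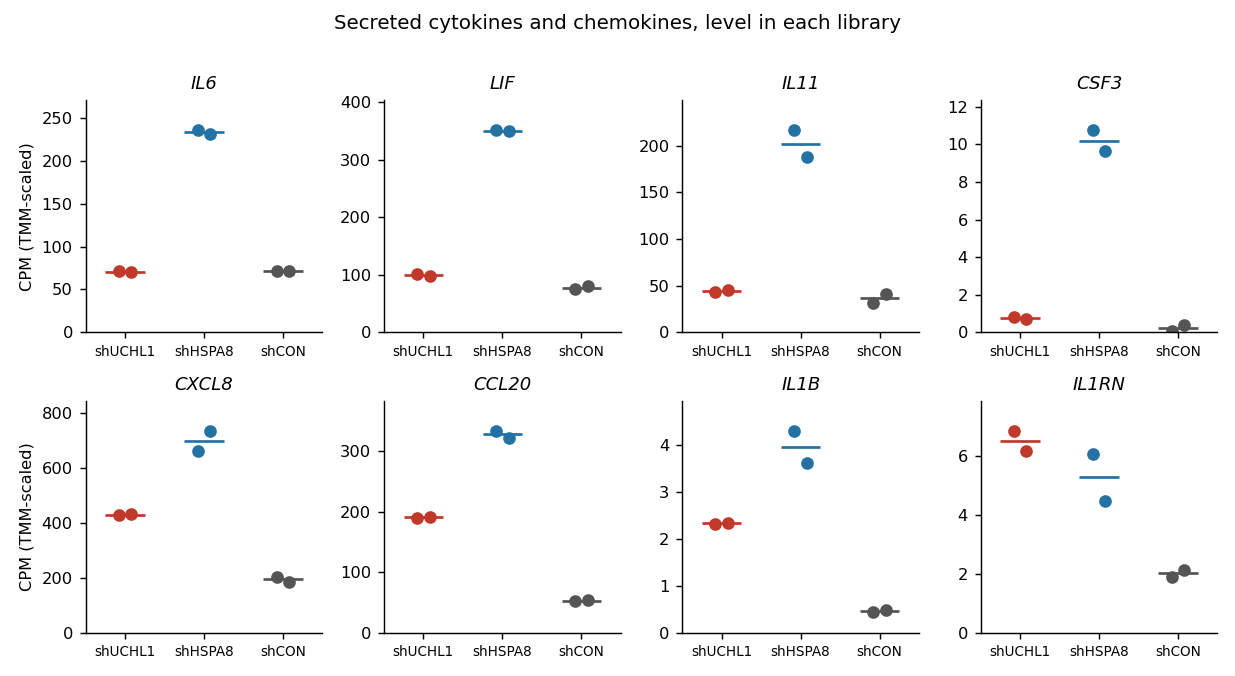
Level of 8 secreted factors in each library as TMM-scaled CPM on linear axes from 0, with points for the 2 libraries of a line and a bar for their mean. For IL6, LIF, IL11 and CSF3 the shHSPA8 points stand alone, while for CXCL8, CCL20, IL1B and IL1RN both knockdown lines lie above shCON.

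The interleukin-1 group holds the agonists IL1A and IL1B, the secreted antagonist IL1RN and the receptor IL1R1. IL1A and IL1B are adjacent protein-coding genes in the RefSeq gene order of assembly ARS1.2, and IL1RN follows after 7 others. IL1A stood at 46.4 and 46.7 CPM in shUCHL1, 47.2 and 42.5 CPM in shHSPA8, and 29.6 and 31.9 CPM in shCON. IL1B had 2.32 and 2.34 CPM in shUCHL1, 4.30 and 3.62 CPM in shHSPA8, and 0.443 and 0.490 CPM in shCON. Both knockdown lines lay above shCON for each agonist, but only IL1B separated the knockdown lines from each other.

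IL1A rose 1.51-fold in shUCHL1 and 1.46-fold in shHSPA8 (edgeR adjusted p = 0.00983 and 0.0141). IL1B was 4.93-fold higher in shUCHL1 (2.30 on the log2 scale, SE 0.28) and 8.36-fold in shHSPA8 (3.06, SE 0.26), with edgeR adjusted p of 0.00262 and 0.000456. Its shCON libraries lay below the filter level, so an upward direction from shCON was built in. Between the knockdown lines IL1B was 1.70-fold lower in shUCHL1 (edgeR adjusted p = 0.0425). The antagonist IL1RN had 6.84 and 6.18 CPM in shUCHL1, 6.07 and 4.46 CPM in shHSPA8, and 1.90 and 2.14 CPM in shCON. It rose 3.21-fold in shUCHL1 and 2.60-fold in shHSPA8 (edgeR adjusted p = 0.00327 and 0.00756). The receptor IL1R1 stood at 88.8 and 89.4 CPM in shUCHL1, 90.8 and 107 CPM in shHSPA8, and 72.8 and 65.8 CPM in shCON, and passed in shHSPA8 (1.43-fold, edgeR adjusted p = 0.0234; 0.0719 in shUCHL1), with no difference called between the knockdown lines (edgeR adjusted p = 0.401).

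IL18, an interleukin-1 family cytokine released by inflammasomes, went the other way. It stood at 33.9 and 36.8 CPM in shUCHL1, 31.4 and 26.3 CPM in shHSPA8, and 46.1 and 50.1 CPM in shCON, so both shCON libraries were the highest. IL18 fell 1.36-fold in shUCHL1 (edgeR adjusted p = 0.0484) and 1.67-fold in shHSPA8 (edgeR adjusted p = 0.00805). IL33, a nuclear alarmin of the same family, had 2.81 and 3.06 CPM in shUCHL1, 1.14 and 3.30 CPM in shHSPA8, and 4.05 and 2.88 CPM in shCON. The lines overlapped for IL33 and no comparison passed. Of the lymphocyte growth factors, IL15 ranged from 4.93 to 7.55 CPM over the 6 libraries with no call. IL7 had 27 counts in shUCHL1, 9 in shHSPA8 and 3 in shCON, and the ratio of shUCHL1 to shCON was 8.75 with a 95% counting interval of 2.69 to 45.1 (edgeR adjusted p = 0.0243). IL7 entered the test only through shUCHL1, so this direction was built in and the values are a description.

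Per transcript length, the deposited FPKM values give the order of the secreted factors within each line. In shUCHL1 the highest means were CXCL8 at 366 FPKM, CCL20 at 360 FPKM and IL6 at 206 FPKM. In shHSPA8 IL6 came first at 678 FPKM, then CCL20 at 599 FPKM, CXCL8 at 563 FPKM and IL11 at 220 FPKM. In shCON the order was IL6 at 202 FPKM, CXCL8 at 158 FPKM, IL18 at 139 FPKM and CCL20 at 96.4 FPKM. IL6, CXCL8 and CCL20 were thus already well above most of the other listed genes in the control line: the agonist IL1A averaged 20.1 FPKM and IL1B 0.665 FPKM there.

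ACKR3, a scavenging receptor that binds CXCL12, stood at 100.3 and 100.4 CPM in shUCHL1, 45.1 and 46.4 CPM in shHSPA8, and 82.2 and 93.8 CPM in shCON. Only the shHSPA8 libraries were low. ACKR3 fell 1.92-fold in shHSPA8 (log2 fold change -0.94, SE 0.10, edgeR adjusted p = 0.00115), had a log2 fold change of 0.19 in shUCHL1 (SE 0.10, edgeR adjusted p = 0.254), and in the direct contrast shUCHL1 exceeded shHSPA8 by 2.19-fold (edgeR adjusted p = 0.00116).

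ICAM1, the ligand on endothelial and other cells for leukocyte integrins, was the adhesion molecule measured. It stood at 103 and 108 CPM in shUCHL1, 64.2 and 58.7 CPM in shHSPA8, and 40.8 and 39.3 CPM in shCON, with no overlap between lines. ICAM1 was 2.63-fold higher in shUCHL1 (1.40 on the log2 scale, SE 0.10, edgeR adjusted p = 0.000303) and 1.53-fold in shHSPA8 (0.62, SE 0.10, edgeR adjusted p = 0.00608). The direct contrast put it 1.72-fold higher in shUCHL1 (edgeR adjusted p = 0.00336), opposite in direction to CXCL8 and CCL20 above.

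The NF-kB subunits were called higher in 2 of 5 cases in shUCHL1 and in 3 of 5 in shHSPA8, against 8.54% and 8.66% of all tested genes. NFKB1, which encodes the p105 precursor of a DNA-binding subunit, stood at 79.1 and 80.1 CPM in shUCHL1, 121 and 123 CPM in shHSPA8, and 51.3 and 56.7 CPM in shCON. RELA, the main activating subunit, stood at 122 and 121 CPM in shUCHL1, 122 and 116.7 CPM in shHSPA8, and 104 and 125 CPM in shCON. NFKB1 therefore separated all 3 lines, whereas RELA overlapped among them. NFKB1 rose 1.47-fold in shUCHL1 (edgeR adjusted p = 0.00857) and 2.26-fold in shHSPA8 (edgeR adjusted p = 0.000346), and was 1.53-fold lower in shUCHL1 than in shHSPA8 (edgeR adjusted p = 0.00683). The RELA log2 fold change was 0.09 (SE 0.11) in shUCHL1 and 0.06 (SE 0.11) in shHSPA8, and each turned negative without shCON replicate 1 (-0.06 and -0.09).

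RELB, a subunit of the non-canonical branch, had 15.5 and 18.05 CPM in shUCHL1, 22.4 and 21.5 CPM in shHSPA8, and 9.24 and 9.73 CPM in shCON. It rose 1.77-fold in shUCHL1 and 2.31-fold in shHSPA8 (edgeR adjusted p = 0.00729 and 0.00119). NFKB2, which encodes p100, the precursor of a partner of RELB, rose 1.58-fold in shHSPA8 (edgeR adjusted p = 0.0128). In shUCHL1 the NFKB2 log2 fold change was 0.32 (SE 0.12, edgeR adjusted p = 0.131). REL varied more within lines than between them, with 3.54 and 2.82 CPM in shUCHL1, 1.64 and 3.69 CPM in shHSPA8, and 3.17 and 1.22 CPM in shCON, and passed in no comparison.

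Among feedback genes, TNFAIP3 encodes A20, a ubiquitin-editing enzyme that shuts off IKK activation. It stood at 34.7 and 34.7 CPM in shUCHL1, 53.7 and 56.3 CPM in shHSPA8, and 11.6 and 14.6 CPM in shCON. NFKBIA, the IkB-alpha inhibitor that is itself a rapid target, stood at 69.6 and 71.8 CPM in shUCHL1, 79.7 and 75.7 CPM in shHSPA8, and 33.4 and 42.2 CPM in shCON. Both knockdown lines lay above shCON for both genes. TNFAIP3 rose 2.65-fold in shUCHL1 and 4.19-fold in shHSPA8 (edgeR adjusted p = 0.000902 and 0.000145), and NFKBIA 1.87-fold and 2.06-fold (edgeR adjusted p = 0.00423 and 0.00209).

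NFKBIZ, an atypical nuclear IkB protein needed for some secondary targets such as IL6, rose 1.63-fold in shUCHL1 and 1.56-fold in shHSPA8 (edgeR adjusted p = 0.00547 and 0.00758). NFKBIE, the IkB-epsilon inhibitor, ranged from 8.39 to 12.1 CPM over the 6 libraries and passed in no comparison. Between the knockdown lines TNFAIP3 was 1.58-fold lower in shUCHL1 (edgeR adjusted p = 0.0148), and NFKBIA, NFKBIZ and NFKBIE did not pass, with log2 differences of -0.14 (SE 0.12), 0.06 (SE 0.10) and 0.31 (SE 0.14).

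**Figure D3:**
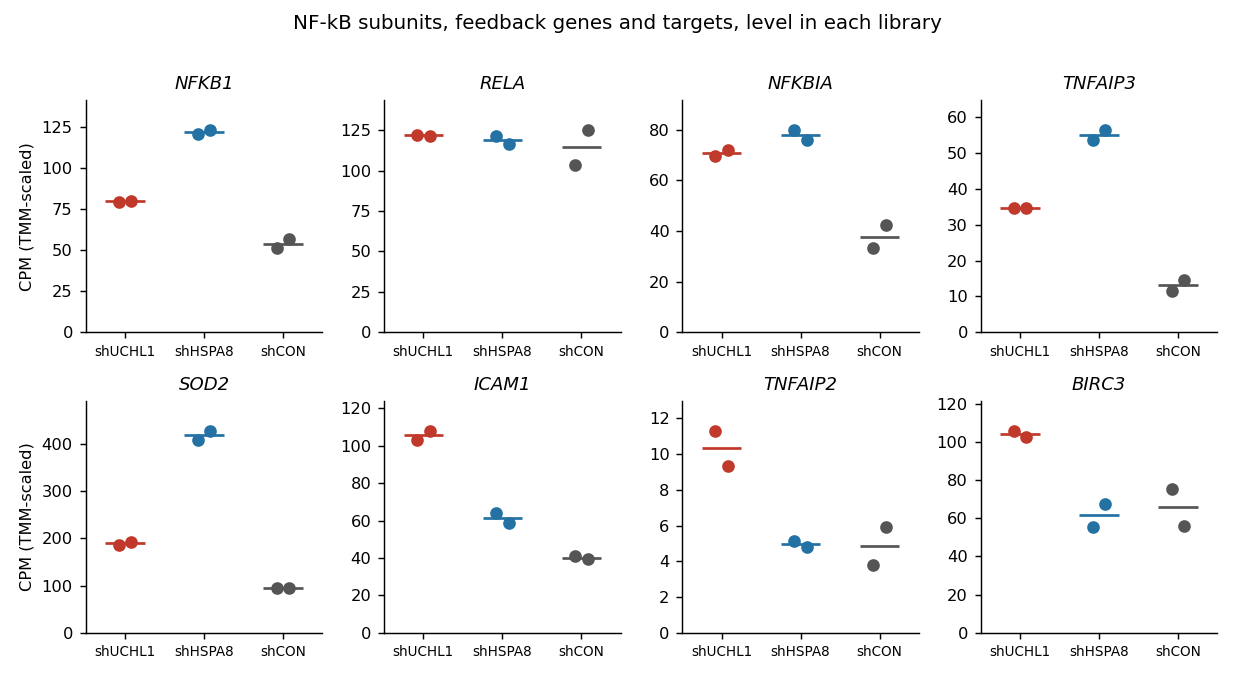
Level of 8 NF-kB genes in each library as TMM-scaled CPM on linear axes from 0, with points for the 2 libraries of a line and a bar for their mean. NFKB1, TNFAIP3 and SOD2 are highest in shHSPA8, ICAM1, TNFAIP2 and BIRC3 are highest in shUCHL1, and the RELA points overlap.

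Survival and effector targets split between the lines. SOD2, the mitochondrial superoxide dismutase, stood at 187 and 193 CPM in shUCHL1, 409 and 428 CPM in shHSPA8, and 94.7 and 94.6 CPM in shCON. It rose 2.01-fold in shUCHL1 and 4.42-fold in shHSPA8 (edgeR adjusted p = 0.000474 and 2.29e-05), and was 2.20-fold lower in shUCHL1 than in shHSPA8 (edgeR adjusted p = 0.000416). TNFAIP2 had 11.3 and 9.35 CPM in shUCHL1, 5.12 and 4.78 CPM in shHSPA8, and 3.80 and 5.94 CPM in shCON, so only shUCHL1 stood apart. Its deposited counts carry decimal fractions in every library, so some of its reads may be shared with another gene, and its values are uncertain to that extent.

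BIRC3, the inhibitor of apoptosis cIAP2, and TRAF1, an adaptor that binds it, resembled TNFAIP2. BIRC3 stood at 106 and 102 CPM in shUCHL1, 55.4 and 67.7 CPM in shHSPA8, and 75.3 and 56.1 CPM in shCON. TRAF1 stood at 29.1 and 32.1 CPM in shUCHL1, 19.7 and 20.6 CPM in shHSPA8, and 19.2 and 21.7 CPM in shCON. For both genes the shHSPA8 and shCON libraries overlapped below shUCHL1. TNFAIP2 rose 2.12-fold, BIRC3 1.58-fold and TRAF1 1.496-fold in shUCHL1 against shCON, with edgeR adjusted p of 0.0186, 0.0323 and 0.0170. Against shHSPA8 they were 2.08-fold, 1.69-fold and 1.52-fold higher in shUCHL1 (edgeR adjusted p = 0.0226, 0.0225 and 0.0173). In shHSPA8 against shCON their log2 fold changes were 0.02, -0.09 and -0.02, and each of these small values changed sign when a library was left out. TNFAIP6, a hyaluronan-binding protein, ranged from 12.8 to 20.8 CPM over the 6 libraries and passed in no comparison.

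**Figure D4:**
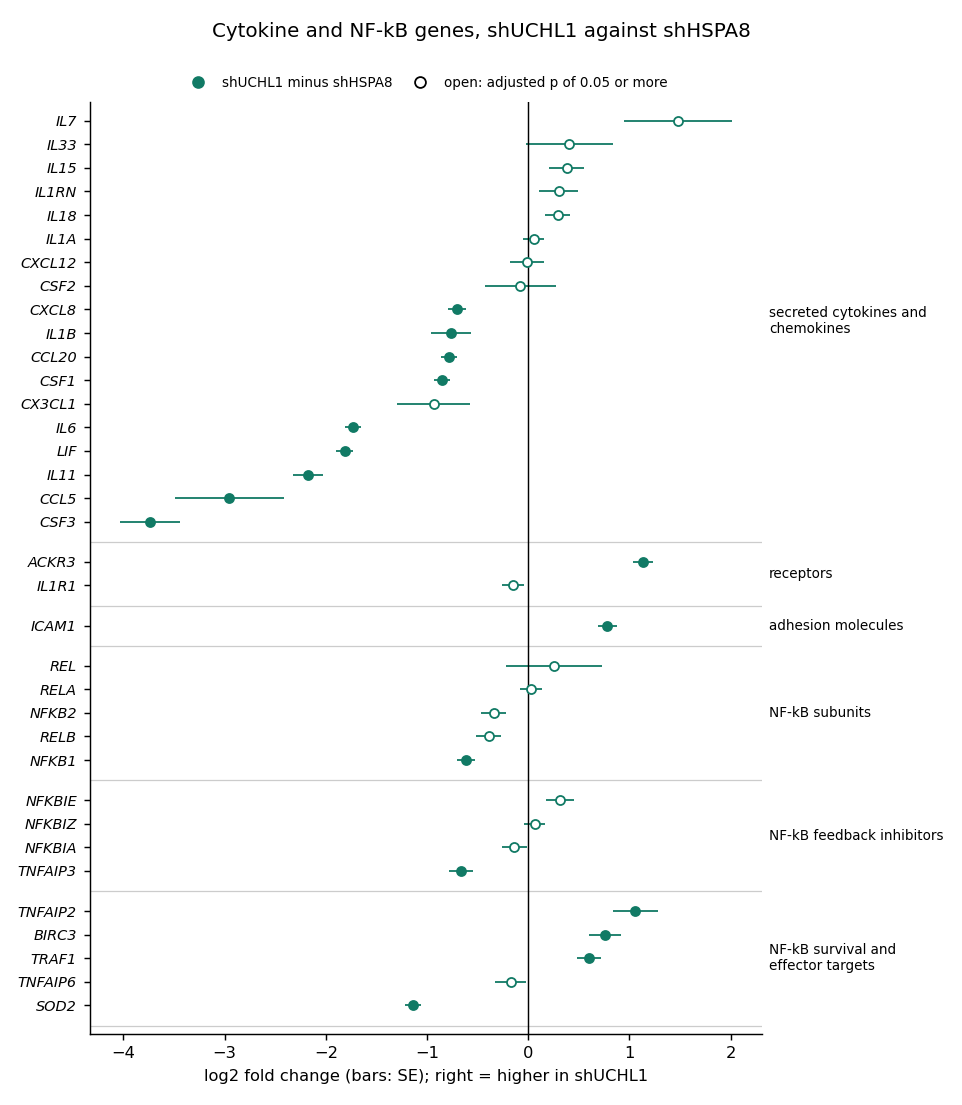
Log2 fold change of the 35 tested genes in shUCHL1 minus shHSPA8, grouped by role, with bars for the standard error, 2 libraries per line, and open points for genes not called. The filled cytokine points all lie left of 0, from -0.70 for CXCL8 to -3.74 for CSF3, and the filled points right of 0 are ACKR3, ICAM1, TNFAIP2, BIRC3 and TRAF1.

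With 2 libraries per line, many calls ended when 1 library was left out, also for genes whose log2 fold change hardly moved. IL1A in shUCHL1 against shCON went from 0.5985 to 0.5912 without shUCHL1 replicate 1 and to 0.5771 without replicate 2. Some calls also ended without a library of the line not compared. The calls of IL1B, CSF3, CCL5 and IL7 against shCON had an upward direction built in by the filter. Against shCON, the rises of IL1B, CXCL8, CCL20, IL1RN, ICAM1, TNFAIP3 and SOD2 in shUCHL1 passed under all 12 alternatives, and leaving out shUCHL1 replicate 1 gave 9 called genes and leaving out replicate 2 gave 7. Calls ended for IL1A, CSF1, LIF, IL18, CXCL12, IL7, NFKB1, NFKBIZ, TNFAIP2, BIRC3 and TRAF1 without shUCHL1 replicate 1 (edgeR adjusted p from 0.0546 to 0.323), and for these with RELB and NFKBIA without replicate 2 (0.0507 to 0.255). Without shHSPA8 replicate 1, CSF1, LIF and IL18 lost their call (edgeR adjusted p from 0.0503 to 0.0668), and without shHSPA8 replicate 2, CSF1 and LIF did (0.0624 and 0.0650). Without shCON replicate 1, LIF and IL7 lost their call (edgeR adjusted p = 0.0585 and 0.0755), and without shCON replicate 2, CSF1, IL18, IL7 and BIRC3 did (0.0521 to 0.103), while IL11 and NFKB2 gained one (0.0450 and 0.0319). IL1R1 passed in shUCHL1 with library-size scaling (edgeR adjusted p = 0.0326), CSF1 and IL18 did not (0.0751 and 0.0946), and LIF and IL7 did not pass with DESeq2 (adjusted p = 0.0679 and 0.103).

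In shHSPA8 against shCON, 17 of the 23 calls passed under all 12 alternatives. IL1A and IL1R1 lost theirs without shUCHL1 replicate 1 (edgeR adjusted p = 0.0605 and 0.0767) or replicate 2 (0.0607 and 0.0767). Without shHSPA8 replicate 1, IL1A, CSF1 and NFKB2 lost their call (edgeR adjusted p from 0.0538 to 0.0950), and without shHSPA8 replicate 2, IL18, IL1R1 and NFKBIZ did (0.0541 to 0.140), while IL33 gained one (0.0479). TNFAIP6 passed without shCON replicate 1 (edgeR adjusted p = 0.0411).

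Between the knockdown lines, the differences of IL6, CSF1, CSF3, CCL20, LIF, IL11, ACKR3 and SOD2 passed under all 12 alternatives. Leaving out shUCHL1 replicate 1 gave 9 called genes, its replicate 2 gave 8 and shHSPA8 replicate 1 gave 11. The genes that lost their call were IL1B, CXCL8, CCL5, NFKB1, TNFAIP3, TNFAIP2, BIRC3 and TRAF1 without shUCHL1 replicate 1 (edgeR adjusted p from 0.0645 to 0.267), and these with ICAM1 without replicate 2 (0.0584 to 0.245). Without shHSPA8 replicate 1, IL1B, CCL5, TNFAIP3, TNFAIP2, BIRC3 and TRAF1 lost theirs (0.0623 to 0.238), and without shHSPA8 replicate 2, IL1B, TNFAIP3, TNFAIP2 and TRAF1 did (edgeR adjusted p from 0.0700 to 0.0941). NFKB2 and RELB gained a call without either shCON library (edgeR adjusted p = 0.0283 and 0.0475 without replicate 1, and 0.0304 and 0.0475 without replicate 2). The shUCHL1 lower level of IL1B had an adjusted p of 0.299 with DESeq2 and 0.0636 in edgeR with library-size scaling, and that of CCL5 one of 0.0854 with DESeq2.

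The other genes of the pathway were 5 lists with 111 symbols, of which 87 had values and 69 were tested. In shUCHL1 14 were higher (20.3%, against 8.54% of all tested genes) and 4 lower (5.8%, against 7.15%) than in shCON. In shHSPA8 15 were higher (21.7%, against 8.66%) and 2 lower (2.9%, against 6.02%). TNFSF13B, CXCR2 and IL18RAP were below the filter level in both shCON libraries, so their direction was built in as above. Over the 69, the median log2 fold change was 0.13 in shUCHL1 and 0.03 in shHSPA8, nearer to that of all tested genes than the medians of the 35 genes above. These lists too were chosen with earlier results of these data known, so this contrast is a description. A broader set, the 62 tested genes that the authors' deposited pathway column assigns to NF-kappa B signalling and that are not among the 40, was looked at after these values were known. It had 9 higher (14.5%) and 4 lower (6.45%) in shUCHL1, and 11 higher (17.7%) and 7 lower (11.3%) in shHSPA8, against the same shares of all tested genes.

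Of 17 tested kinases and partners, 3 were higher (17.6%) and 1 lower (5.88%) in shUCHL1, and 5 higher (29.4%) and 1 lower (5.88%) in shHSPA8, the lower calls being near the share of all tested genes. Of all tested genes, 8.54% were higher in shUCHL1 and 8.66% in shHSPA8. The core IKK subunits CHUK, IKBKB and IKBKG passed in neither. IKBKE, an IKK-related kinase of the interferon response, averaged 10.8 CPM in shUCHL1, 24.1 CPM in shHSPA8 and 10.7 CPM in shCON, a rise of 1.17 on the log2 scale in shHSPA8 (SE 0.14, edgeR adjusted p = 0.00205). It was lower in shUCHL1 than in shHSPA8 (log2 difference -1.15, SE 0.14, edgeR adjusted p = 0.00345), a call that ended without shUCHL1 replicate 1 (0.0532). MAP3K8, a kinase bound to the p105 precursor, averaged 4.60 CPM in shUCHL1, 4.67 CPM in shHSPA8 and 1.74 CPM in shCON, and rose in both (log2 fold change 1.40 and 1.42, edgeR adjusted p = 0.00359 and 0.00304). RIPK2, the kinase of NOD receptors, rose by 0.56 in shUCHL1 and 0.50 in shHSPA8 on the log2 scale (SE 0.09 each), but its call ended in shUCHL1 without shUCHL1 replicate 1 or 2 (edgeR adjusted p = 0.106 and 0.109) and in shHSPA8 without any shUCHL1 or shHSPA8 library (0.0567 to 0.0831).

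Of 18 adaptors and ubiquitin ligases, edgeR called 0 in shUCHL1 (3 were higher at an unadjusted p under 0.05, DESeq2 called 0, and TRAF3 passed with library-size scaling). In shHSPA8 2 were higher (11.1%), TRAF3 (log2 fold change 0.45, SE 0.09) and TRAF3IP2 (0.51, SE 0.12), and BIRC2 was lower (-0.67, SE 0.14), a share of 5.56%. These shares lay near the 8.66% higher and 6.02% lower of all tested genes. TRAF3 lost its call without any shUCHL1 or shHSPA8 library (edgeR adjusted p from 0.0577 to 0.120), TRAF3IP2 without these or shCON replicate 1 (0.0572 to 0.169), and BIRC2 without shHSPA8 replicate 1 or 2 (0.122 and 0.0515). Among 11 further inhibitors, 3 were higher (27.3%, against 8.54% and 8.66% of all tested genes) in each knockdown line and the other 8 were not called. BCL3, a nuclear IkB protein, averaged 12.7 CPM in shUCHL1, 11.2 CPM in shHSPA8 and 5.43 CPM in shCON. ZC3H12A, the ribonuclease regnase-1 that degrades IL6 messenger RNA, averaged 64.9 CPM in shUCHL1, 63.9 CPM in shHSPA8 and 33.8 CPM in shCON. TNIP1, a partner of A20, averaged 193 CPM in shUCHL1, 256 CPM in shHSPA8 and 143 CPM in shCON. Their log2 fold changes were 1.22, 0.94 and 0.43 in shUCHL1 and 1.04, 0.92 and 0.84 in shHSPA8. In shUCHL1, BCL3 lost its call without shUCHL1 replicate 1 (edgeR adjusted p = 0.0637), ZC3H12A without replicate 2 (0.0737) and TNIP1 without every library but shCON replicate 2 (0.0514 to 0.265), and in shHSPA8 BCL3 lost its call without shHSPA8 replicate 1 (0.0694).

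Of 17 receptors of these cytokines tested, 5 were higher (29.4%) and 1 lower (5.88%) in shUCHL1, and 3 were higher (17.6%) in shHSPA8. Of all tested genes, 8.54% were higher and 7.15% lower in shUCHL1, and 8.66% were higher in shHSPA8. OSMR, the oncostatin M receptor that pairs with IL6ST, averaged 27.9 CPM in shUCHL1, 15.999 CPM in shHSPA8 and 6.09 CPM in shCON, a rise of 2.19 (SE 0.15) and 1.39 (SE 0.15) on the log2 scale with edgeR adjusted p of 0.000302 and 0.00128. CXCR2, a receptor of CXCL8, had 39 counts in shUCHL1, 21 in shHSPA8 and 4 in shCON, and IL1RL1, the receptor of IL33, averaged 6.27 CPM in shUCHL1, 14.1 CPM in shHSPA8 and 18.4 CPM in shCON, with a fall of 1.55 on the log2 scale in shUCHL1 (SE 0.26). LIFR, the receptor of LIF, named here after its values were seen, had 80 counts in shUCHL1, 3 in shHSPA8 and 21 in shCON. In shCON it stood at 0.696 and 0.612 CPM, around the filter level, and both shHSPA8 libraries lay below that level. It thus passed the filter through shUCHL1, which favours an upward direction there, so its values are a description. Against shCON it was called higher in shUCHL1 (log2 fold change 1.88, SE 0.40, edgeR adjusted p = 0.0203), but not with DESeq2 (adjusted p = 0.0561). The LIFR call also ended without shUCHL1 replicate 1, shUCHL1 replicate 2 or shCON replicate 2, with log2 fold changes of 1.70, 2.01 and 1.78. In shHSPA8 it was not called (-2.67, SE 0.77, edgeR adjusted p = 0.0606). As measured, LIF and LIFR both stood higher in shUCHL1 than in shCON, while shHSPA8 had the most LIF and the fewest LIFR reads. The LIF call in shUCHL1 ended under 8 of 12 alternatives.

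CXCR2 lost its call in shUCHL1 without shUCHL1 replicate 1 or 2 (edgeR adjusted p = 0.05004 and 0.0534) and in shHSPA8 without any library other than shCON replicate 2 (0.0655 to 0.186), and IL1RL1 lost its call in shUCHL1 without replicate 2 (0.0721). Of 35 further cytokines and chemokines 6 were tested, and TNFSF13B, the B cell survival factor BAFF, had 204 counts in shUCHL1, 125 in shHSPA8 and 7 in shCON. That was a ratio to shCON of 28.3 in shUCHL1 (95% counting interval 13.51 to 71.4) and 18.3 in shHSPA8 (8.64 to 46.6), given as a description because its shCON libraries lay below the filter level. CXCL16 fell by 0.78 on the log2 scale in shUCHL1 (SE 0.15), and IL16 rose by 0.85 in shUCHL1 and 0.84 in shHSPA8 (SE 0.19 each). CXCL16 lost its call without shUCHL1 replicate 1 or 2 (edgeR adjusted p = 0.0696 and 0.148), and IL16 lost its call in shUCHL1 without any shUCHL1 or shCON library (0.0530 to 0.182) and in shHSPA8 without any library but shCON replicate 2 (0.0529 to 0.152). With DESeq2, IL16 was called in neither knockdown line (adjusted p = 0.121 in shUCHL1 and 0.120 in shHSPA8). In shHSPA8, CXCR2 was not called with DESeq2 (adjusted p = 0.137) or in edgeR with no low-count filter (adjusted p = 0.0509). TNF itself, named after its values were seen, had 3 counts in shUCHL1, 15 in shHSPA8 and 5 in shCON and was not tested.

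**Figure D5:**
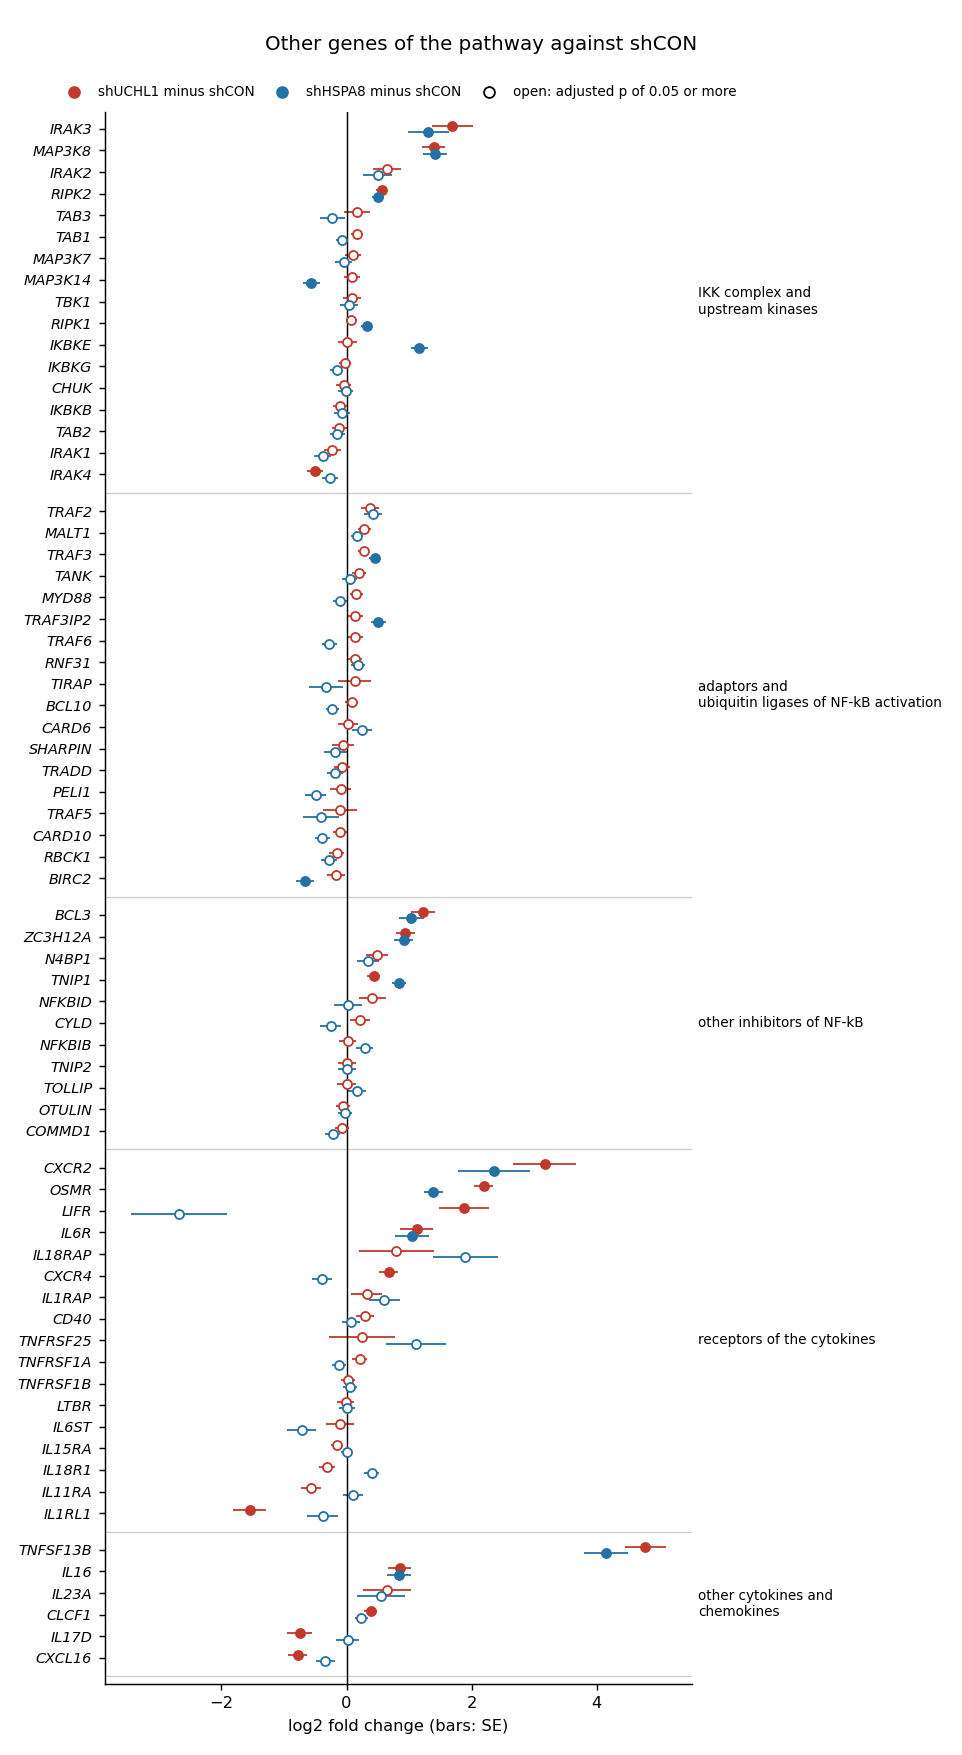
Log2 fold change of 69 further tested genes of the pathway in shUCHL1 minus shCON (red) and shHSPA8 minus shCON (blue), in 5 lists, with bars for the standard error, 2 libraries per line, and open points for genes not called. Most kinases and adaptors are open points, whereas TNFSF13B, CXCR2 and OSMR lie to the right in both comparisons and LIFR is split.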

How the data were processed

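Messenger RNA of 6 libraries was sequenced, 2 per line. Groups and replicate numbers come from the sample titles. The submitters' processing notes name Trimmomatic 0.36, a read trimmer. Aligner, counter, build and strandedness: not given in the sources used here. The authors deposited 1 table with 33229 entries, 16599 of them with values. Per the file headers, the authors give FPKM values and read counts per library. Between 1014 and 1117 genes per library have fractional values, so the counts the authors deposited were treated as estimated counts, and they were rounded before testing. Deposited log2 ratios and p-values of each pair of lines, made by the authors, were not used. FPKM served only to order genes within a line.

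Tests used edgeR 4.0.16 in R 4.3.3 (filterByExpr, TMM scaling, glmQLFit and glmQLFTest, group as the only term, all 6 libraries, 12665 genes, Benjamini-Hochberg adjustment per comparison, threshold 0.05), and were checked on simulated data. SE is the log2 fold change divided by the square root of F. Counting intervals (95%) are exact binomial, cover counting error only and pool the libraries of a line. Alternatives were RLE factors, library size alone, DESeq2 1.42.0, no low-count filter, only the 4 libraries compared, a replicate block and leaving out each library. Members, lists and roles were chosen with earlier results of these data known. Per-library values are given for members called with a log2 fold change of at least 1 in either comparison with shCON, and for some others. From each of the 5 further lists, up to 3 genes with the lowest p among those called against shCON are named. No sequences are shown.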

Additional observations from a re-analysis of the deposited data

How the results depend on the processing

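Over the 12 alternatives no called difference among the 35 genes changed direction. The number of called genes of the list, 20 in shUCHL1 against shCON, 23 in shHSPA8 against shCON and 17 between the knockdown lines, ran from 7 to 19, from 20 to 24 and from 8 to 19 when 1 library was left out, where the lone library of a line is assumed to vary like the others. Over all genes the calls ran from 528 to 2615, from 920 to 2416 and from 257 to 3083, against 1987, 1859 and 1843. With a replicate block they were 1230, 1131 and 923 over all genes and 16, 21 and 14 in the list. The replicate numbers are not shown to pair the libraries: replicate 1 deviations had correlations of -0.23 between shUCHL1 and shHSPA8, 0.23 between shUCHL1 and shCON and -0.54 between shHSPA8 and shCON. With only the 4 libraries compared, 1104 genes were called in shHSPA8 against shCON and 3116 between the knockdown lines. The spread between libraries of a line was unequal: chi-square per degree of freedom against counting noise was 2.392 in shUCHL1, 12.1 in shHSPA8 and 22.72 in shCON. The main fit shares its estimate of spread over the lines, so its p-values do not follow this inequality. Its part in these counts was not tested. The split of all called genes depended on scaling. In shUCHL1 against shCON it was 1082 higher and 905 lower, but 1368 and 641 by library size alone and 735 and 841 with DESeq2. Between the knockdown lines it was 785 and 1058, but 1339 and 740 by library size alone.

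Some differences that were not called changed sign, also ones not near 0, such as IL33 between the knockdown lines (0.408 in the main fit). By library size alone, IL6 in shUCHL1 against shCON was 0.0592, TNFAIP2 in shHSPA8 against shCON was -0.0018, and between the knockdown lines CSF2 was 0.0219 and CXCL12 0.0939. IKBKE in shUCHL1 was -0.0044 with RLE factors, -0.012 with DESeq2 and -0.0014 with no filter. With 1 library left out, log2 fold changes in shUCHL1 against shCON ran from -0.468 to 0.0044 for IL33, -0.061 to 0.2281 for RELA, -0.0884 to 0.0929 for IKBKE and -0.3528 to 0.0171 for BIRC2. In shHSPA8 against shCON they ran from -0.4094 to 1.0934 for REL, -0.0884 to 0.1977 for RELA, -0.2805 to 0.3804 for TNFAIP2, -0.2928 to 0.1129 for BIRC3 and -0.125 to 0.0636 for TRAF1. Between the knockdown lines they ran from -0.0213 to 0.1286 for IL1A, -0.2524 to 0.0684 for CSF2, -0.1708 to 1.3587 for IL33, -0.2159 to 0.9462 for REL and -0.008 to 0.1322 for NFKBIZ. The cause was not tested.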
